A study of Mus musculus with 6 samples.

Results

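The genes described here are Rag1, Rag2 and their neighbours on mouse chromosome 2, 55 genes from Creb3l1 to Mpped2 in the order of the gene table. They were chosen by name, and every probe set whose only gene symbol in the array's annotation was one of these names was taken. That gave 121 probe sets for 53 of the 55 genes, out of 45037 probe sets for 18193 gene symbols on the array. Cd59b and Tcp11l1 had no such probe set and were not measured here.

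RNA came from choroid plexus epithelium of whole mouse brain and was measured on 6 single-colour arrays, 1 per preparation. By the sample descriptions, 3 preparations were wild type (WT) B10.PL mice and 3 were RAG-/- mice on the B10.PL strain. Age, sex, the RAG gene that was disrupted, the strain in which the allele was made and whether animals were pooled are not stated in the labels. Each title carries a genotype of its own and a code shared by 1 sample of each genotype, which makes 3 pairs. In pair 1 the descriptions state that the samples had been reversed, so the description contradicts the title of both arrays. By title, the RAG arrays of pairs 1, 2 and 3 are WT replicate 1 and RAG-/- replicates 2 and 3, and the B10 arrays are RAG-/- replicate 1 and WT replicates 2 and 3. Both readings are given throughout, and each array keeps the name of its description. Nothing in the labels says that the preparations came from separate animals, so p-values reflect only how far these preparations differ, and part of that can be technical.

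RAG1 and RAG2 form the recombinase that cuts antigen receptor genes in developing T and B cells, and a mouse that lacks either gene has no mature T or B cells. The 2 genes lie next to each other and are transcribed towards each other. A gene disrupted in stem cells of one strain and crossed into another strain carries a stretch of donor chromosome with it, and genes on that stretch can differ between knockout and control mice for reasons unrelated to the disrupted gene. The members' order along the chromosome therefore bears on whether probe sets that part the arrays lie together around Rag1 and Rag2. No genotypes of the mice were used, so a donor stretch as such was not tested.

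The arrays were much alike in the deposited intensities, with medians of 77.8 to 97.1, and correlations between arrays over probe sets were 0.905 to 0.965. RAG-/- replicate 2 stood apart, at 106.0 on the first principal component (48.4% of the variance), against -69.3 to 31.2 for the others. All 10 measured markers of choroid plexus epithelium were above the limit for dim signal, and their summed intensity was 99321 in RAG-/- replicate 2 and 144979 to 169645 in the other arrays. The summed intensity of 7 oligodendrocyte markers was 42841 to 69474 in the arrays titled RAG and 31135 to 34057 in those titled B10, without overlap. By description the same sums were 32447 to 69474 in RAG-/- and 31135 to 42841 in WT. Of these 7 markers, 5 parted the arrays by title (6.53% of all probe sets did), all higher in RAG, with a median difference of 1.31 over the list. By description 1 of them, Mag, parted the arrays (5.47% of all probe sets did), higher in RAG-/-, and the median difference was 1.08. Of 8 fibroblast and meningeal markers, 4 (Col1a2, Col3a1, Dcn and Pdgfra) parted them by description (5.47% of all probe sets did), all lower in RAG-/-, with a median difference of -1.01. The part of these cells in differences by title or by description was not tested, and in tissue RNA fewer cells of a type and less RNA per cell cannot be told apart. Sex-linked transcripts differed between arrays of RAG-/-. The X-linked Xist, which is made in female cells, was at 9.04, 12.20 and 7.43 in RAG-/- replicates 1, 2 and 3 and at 12.88, 12.95 and 13.19 in WT replicates 1, 2 and 3 at its brightest probe set. The Y-linked Eif2s3y was at 9.47, 4.26 and 9.76 in RAG-/- and 4.57, 4.19 and 5.76 in WT. Thus RAG-/- replicates 1 and 3 had low Xist and high Eif2s3y, whereas RAG-/- replicate 2 and all WT arrays had the reverse. Xist parted the arrays by description and not by title, and the part of sex in differences by description was not tested. Here and below a level is log2(intensity + 16) after quantile normalization, a difference is RAG minus WT (or RAG minus B10 by title) on that scale, and a probe set in the lowest 40% of mean level is called dim. A fold change on this scale is understated for dim probe sets.

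Rag1 parted the arrays by title and not by description. Its deposited intensity in the arrays titled RAG (pairs 1, 2 and 3) was 74.0, 116 and 62.1. In those titled B10 it was 7.19, 1.86 and 4.39. All 3 arrays titled RAG were thus brighter than all 3 titled B10, although its only probe set, 1450680_at, was dim in the mean. On the normalized scale the levels were 6.59 ± 0.31 (SD, n = 3) and 4.37 ± 0.22 (SD, n = 3), a difference of 2.22 by title (exact permutation p = 0.1, two-sided, the smallest that 3 against 3 arrays allow). Within pairs 1, 2 and 3 the difference by title was 1.94, 2.76 and 1.96. By description the difference was 0.93 and the groups overlapped (exact permutation p = 0.3, two-sided), since RAG-/- replicate 1 lay 1.94 below WT replicate 1. By description its size rested on single arrays, at 0.01 without pair 2, 0.41 without pair 3, 2.36 without pair 1, 0.44 without RAG-/- replicate 2, 0.50 without WT replicate 2, 0.59 without WT replicate 3, 1.60 without RAG-/- replicate 1 and 1.69 without WT replicate 1. By title it stayed between 2.06 and 2.36 when any 1 array was left out. The difference also depended on the pseudocount, from 1.08 (pseudocount 64) to 3.97 (pseudocount 1) by title and from 0.43 to 1.91 by description. Mean signal was therefore not lower in RAG under either reading. Without probe positions this is no check of the labels.

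Rag2, measured by the single dim probe set 1418065_at, did not part the arrays. Its levels were 4.46, 4.67 and 7.14 in WT replicates 1, 2 and 3 and 5.55, 4.87 and 5.99 in RAG-/- replicates 1, 2 and 3. The highest and the lowest of the 6 values were both WT arrays. The difference was 0.05 by description (exact permutation p = 1, two-sided) and -0.68 by title (exact permutation p = 0.6, two-sided). The sign by description turned with the pseudocount or when single arrays were left out, and by title the difference was -0.01 without WT replicate 3, -0.36 without WT replicate 1, -1.12 without RAG-/- replicate 3 and -1.24 without WT replicate 2.

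Cd59a, which encodes an inhibitor of the terminal complement complex on the cell surface, lay lower in the arrays titled RAG, in the opposite direction to Rag1. Which of the 2 differed more depended on the pseudocount, since Cd59a stood at -2.44 and Rag1 at 2.22 with 16, but at -2.46 and 3.97 with 1. Its probe set 1418710_at had deposited intensities of 1691, 434 and 1067 in the arrays titled RAG (pairs 1, 2 and 3) and 6715, 3606 and 5472 in those titled B10. Every array titled B10 was more than 2 times as bright as every array titled RAG. The normalized levels were 9.86 ± 1.04 (SD, n = 3) and 12.30 ± 0.41 (SD, n = 3), a difference of -2.44 (SE 0.50), or 5.42-fold lower. Within pairs 1, 2 and 3 the difference by title was -1.94, -3.16 and -2.22, and it was -1.86 without RAG-/- replicate 2. In limma the probe set had an unadjusted p of 0.00123 and an adjusted p of 1 by title. With the pair as a block the SE was 0.26 and the adjusted p 0.406, so it did not pass the threshold of 0.05. By description the difference was -1.15 (SE 0.91) and the groups overlapped, because RAG-/- replicate 1 held the highest level (12.67).

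The other probe set of Cd59a, 1429830_a_at, did not share that pattern. Its levels were 10.22, 8.46 and 9.87 in the arrays titled RAG and 10.71, 9.75 and 9.71 in those titled B10. These groups overlapped, with a difference of -0.54 (SE 0.51) by title, and in pair 3 the array titled RAG was the higher, by 0.17. Whether either probe set also reads Cd59b, the neighbouring copy of the gene, is not known here.

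**Figure D1:**
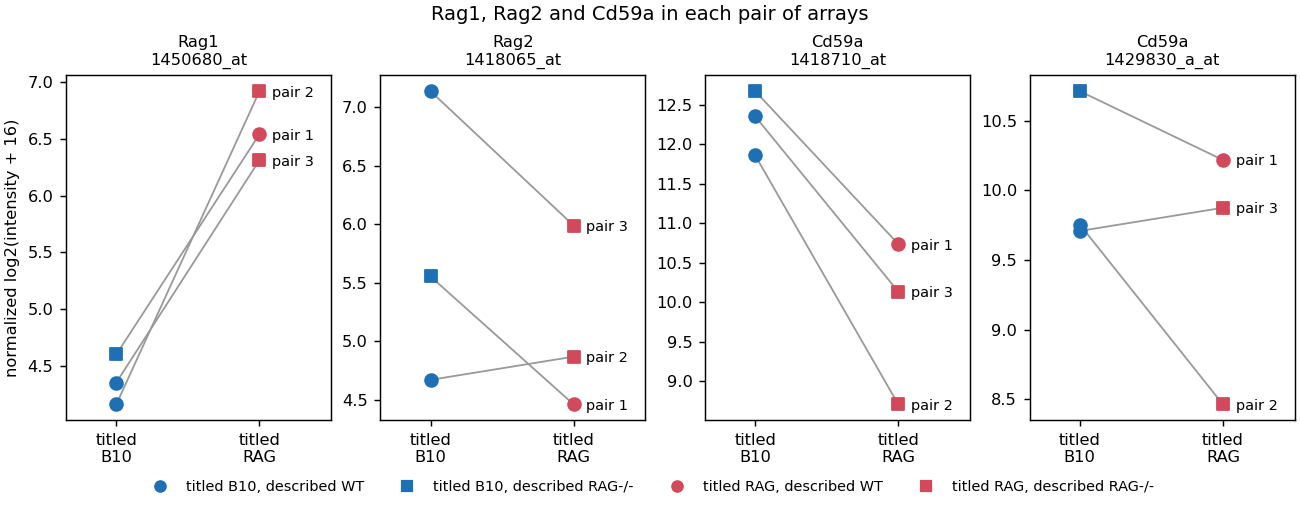
Level, as normalized log2(intensity + 16), of Rag1, Rag2 and both Cd59a probe sets in each array, with lines joining the 2 arrays of a pair and arrays placed by title on the x axis; each panel has its own y axis, colour gives the title and marker shape the description. Rag1 was higher and Cd59a 1418710_at lower in the array titled RAG of every pair, whereas Rag2 and Cd59a 1429830_a_at had pairs in both directions.

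The 250 bases before the transcript start that the RefSeq promoter table gives for Rag1, Rag2 and Cd59a are shown because 2 of these genes parted the arrays by title and Rag2, beside Rag1, did not. They come from RefSeq, build GRCm38.p6 of the C57BL/6J strain, and are written 5′ to 3′ on the strand of the gene. Capitals mark a CCAAT motif on either strand. The Rag1 stretch is chr2:101649533-101649782 on the minus strand, the Rag2 stretch chr2:101624462-101624711 and the Cd59a stretch chr2:104095551-104095800, both on the plus strand. The Cd59a stretch reaches into the gene as annotated, whose outermost start lies upstream of that transcript start.
Rag1: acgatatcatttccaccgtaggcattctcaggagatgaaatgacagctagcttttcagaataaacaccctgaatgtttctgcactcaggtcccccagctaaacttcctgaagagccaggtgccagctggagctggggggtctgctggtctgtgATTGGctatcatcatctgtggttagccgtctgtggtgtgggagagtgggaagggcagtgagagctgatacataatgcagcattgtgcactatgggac
Rag2: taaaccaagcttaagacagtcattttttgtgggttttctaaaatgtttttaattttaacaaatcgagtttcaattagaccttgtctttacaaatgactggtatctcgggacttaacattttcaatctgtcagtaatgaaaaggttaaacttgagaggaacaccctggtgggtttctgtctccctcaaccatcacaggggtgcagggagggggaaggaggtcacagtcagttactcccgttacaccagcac
Cd59a: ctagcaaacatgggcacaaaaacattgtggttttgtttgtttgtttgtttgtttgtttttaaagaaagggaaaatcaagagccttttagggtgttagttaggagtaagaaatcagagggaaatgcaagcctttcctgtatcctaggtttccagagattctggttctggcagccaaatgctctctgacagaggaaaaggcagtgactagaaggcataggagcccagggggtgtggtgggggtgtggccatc
The motifs were searched on both strands and do not overlap one another. CCAAT occurs in 33.8% of the 32851 stretches of the same length in the RefSeq table. The GC box, GGGCGG, occurs in 32.7%. The TATA box, TATAAA, occurs in 12.4%. The E-box, CACGTG, occurs in 6.02%. The Rag1 stretch held 1 CCAAT, on the reverse strand, 97 bases before the start. The Rag2 and Cd59a stretches held 0 of the 4 motifs, which says only that these letters are not in this window. The probe sequences of the array were not used here, so no probe set could be placed within its gene.

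Over all members, the share that parted the arrays by title was that of the array as a whole. The groups did not overlap in 8 of 121 probe sets, 4 higher and 4 lower in the arrays titled RAG, which is 6.61%, against 6.53% of all probe sets (3.04% higher, 3.49% lower). Above the limit for dim signal it was 5 of 86 (5.81%), against 4.78% of all (2.12% higher, 2.66% lower). The median difference by title was -0.02 over members and -0.02 over all probe sets. The median size of the difference was 0.29 over members and 0.23 over all probe sets. With the values as deposited 12 members parted (9.92%, against 6.15% of all) and with a common median 11 (9.09%, against 6.25%). With 1 array or 1 pair left out, groups part more easily, and the share ran from 11.6% to 34.7% of members against 13.7% to 31% of all. The members' share was the higher in 6 of these 9 settings and the lower in 3.

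Those lying higher in the arrays titled RAG were Rag1, Prr5l, Ldlrad3 and Pamr1. Prr5l encodes a partner of the mTOR complex 2, and its probe set 1447914_x_at, which is dim, was at 5.77, 6.28 and 6.80 in the arrays titled RAG and 5.22, 4.63 and 5.18 in those titled B10 (pairs 1, 2 and 3). The difference was 1.27 (SE 0.40 with dim probe sets kept). Its brighter probe sets 1429909_at and 1452834_at lay in the same direction, with differences of 0.55 (SE 0.39) and 0.22 (SE 0.29), and both overlapped between groups. The suffix x marks a probe set in which some probes match other transcripts too.

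Ldlrad3, a membrane protein with domains of the LDL receptor family, was at 8.18, 7.83 and 7.67 in the arrays titled RAG and 7.58, 7.16 and 7.49 in those titled B10. The gap between the groups was small, and the difference was 0.48 (SE 0.30). With a common median its groups overlapped. Pamr1, a secreted protease-like protein linked to muscle regeneration, was at 8.87, 7.77 and 7.50 in the arrays titled RAG and 6.94, 7.29 and 7.39 in those titled B10, a difference of 0.84 (SE 0.41). WT replicate 1 set much of that value, which was 0.43 without it. That array also held the highest summed intensity of 8 fibroblast and meningeal markers, 52532 against 13822 to 37250 in the other arrays, and the part of these cells in the Pamr1 values was not tested.

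Those lying lower in the arrays titled RAG were Cd59a, Qser1, Ext2 and Alx4. Qser1, a protein linked to DNA methylation control, was at 7.75, 6.94 and 8.48 at probe set 1452331_s_at in the arrays titled RAG and 8.50, 9.07 and 9.29 in those titled B10. Pairs 1 and 3 nearly met, at 8.50 and 8.48. The difference was -1.23 (SE 0.44; limma unadjusted p 0.0222, adjusted p 1), and -0.84 without RAG-/- replicate 2. Its other probe sets, 1427151_at and 1427152_at, each differed by -0.56 (SE 0.45 and 0.36) and overlapped between groups.

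Ext2 encodes a subunit of the heparan sulfate polymerase. At its probe set 1447743_x_at the arrays titled RAG were at 5.98, 6.57 and 6.62 and those titled B10 at 6.83, 6.74 and 7.05, a difference of -0.48 (SE 0.33), which was -0.28 without WT replicate 1. Its brightest probe set, 1460170_at, pointed the other way, at 10.30, 10.37 and 9.52 in the arrays titled RAG and 10.47, 9.79 and 8.79 in those titled B10 (difference 0.38, SE 0.46). Alx4, a homeobox transcription factor of limb and skull, was dim at 4.39, 4.31 and 4.53 in the arrays titled RAG and 4.69, 5.46 and 4.61 in those titled B10. Its difference of -0.51 (SE 0.30 with dim probe sets kept) was -0.24 without WT replicate 2.

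By description another 8 of 121 member probe sets parted the arrays, 4 higher and 4 lower in RAG-/-, which is 6.61% against 5.47% of all probe sets (2.98% higher, 2.48% lower). Above the limit for dim signal it was 6 of 86 (6.98%), against 3.44% of all (1.84% higher, 1.6% lower). Only 3 of these 8 still parted with the values as deposited (2.48% of members, against 5.24% of all) and 5 with a common median. All 8 differences were within 1 log2 unit.

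Higher by description were Pdhx, Commd9, Fbxo3 and Ext2. Pdhx, which holds a catalytic subunit in the pyruvate dehydrogenase complex, was at 8.43, 8.49 and 7.96 in WT replicates 1, 2 and 3 and 8.96, 9.06 and 8.59 in RAG-/- replicates 1, 2 and 3, a difference of 0.58 (SE 0.31). Each RAG-/- array lay above each WT array, but with a common median, or with the values as deposited, the groups overlapped. Commd9 at 1438644_x_at was at 11.69, 11.70 and 11.88 in WT and 11.90, 11.88 and 12.02 in RAG-/-, a difference of 0.18 (SE 0.21) that no other scaling kept apart. Its probe sets 1428155_at and 1454781_x_at differed by -0.05 (SE 0.38) and 0.03 (SE 0.38).

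The Fbxo3 probe set 1431078_at, for an F-box protein of a ubiquitin ligase, was dim at 4.94, 4.70 and 4.74 in WT and 5.32, 6.0 and 5.52 in RAG-/- (difference 0.82, SE 0.32 with dim probe sets kept), and these groups stayed apart under every scaling tried. The 4 brighter probe sets of Fbxo3 overlapped between groups and differed by -0.23 to 0.28. Ext2 1447319_at, dim as well, was at 4.41, 5.02 and 4.25 in WT and 5.03, 5.50 and 5.36 in RAG-/- (difference 0.74, SE 0.32 with dim probe sets kept).

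Lower by description were Prdm11, Alkbh3, Hipk3 and Slc35c1. Prdm11, a zinc finger protein of the PRDM family, was at 7.59, 7.86 and 7.80 in WT and 7.43, 6.66 and 7.26 in RAG-/- at 1456186_at, a difference of -0.64 (SE 0.32) that was -0.41 without RAG-/- replicate 2. Its second probe set, 1436651_at, differed by -0.05 (SE 0.33). Alkbh3, a demethylase that repairs alkylated bases, was at 6.78, 6.76 and 7.30 in WT and 5.86, 6.68 and 6.65 in RAG-/- at 1444184_at. That difference of -0.55 (SE 0.36) was -0.28 without RAG-/- replicate 1, and the brighter probe set 1428889_at differed by -0.14 (SE 0.40).

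Hipk3, a nuclear protein kinase, was at 6.65, 6.60 and 6.49 in WT and 6.35, 6.30 and 5.66 in RAG-/- at 1419191_at. The difference of -0.48 (SE 0.34) was -0.26 without RAG-/- replicate 3. Its bright probe set 1426819_at lay in the same direction, at -0.24 (SE 0.23), with groups that overlapped. Slc35c1, the GDP-fucose transporter of the Golgi, was at 6.50, 6.78 and 6.87 in WT and 6.49, 6.48 and 6.42 in RAG-/-, a difference of -0.25 (SE 0.30) in which WT replicate 1 and RAG-/- replicate 1 all but met. Prdm11 and Hipk3 stayed apart under every scaling tried, whereas Slc35c1 did so only with quantile normalization.

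**Figure D2:**
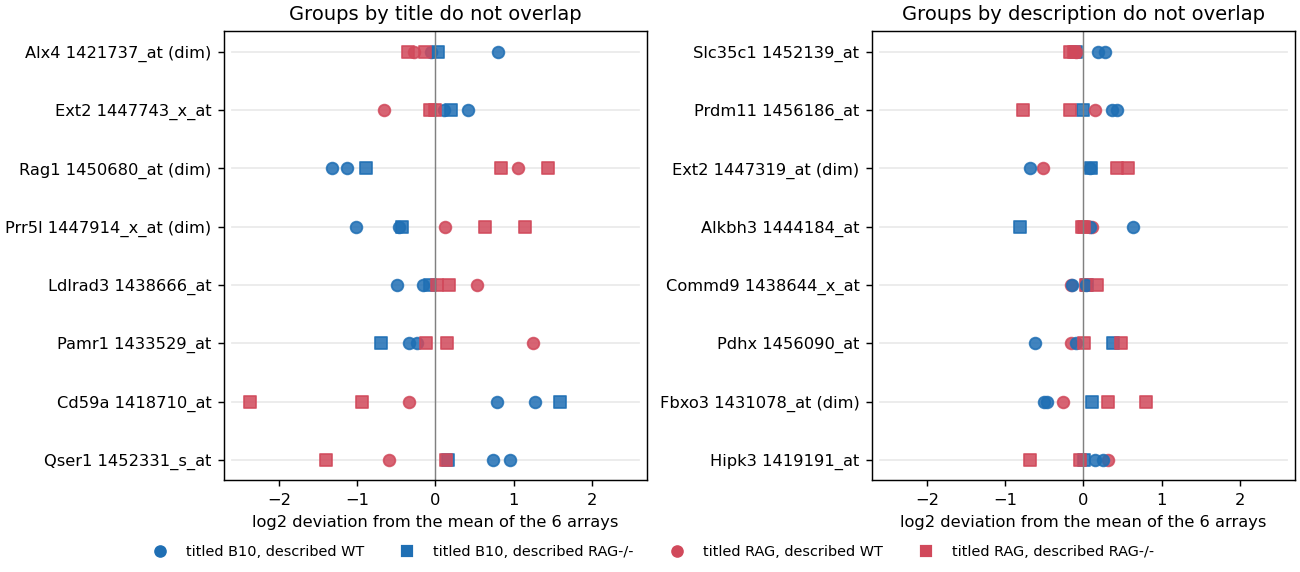
Deviation of each array from the mean of the 6 arrays, in log2 units, for the member probe sets whose groups did not overlap by title (left) or by description (right), in chromosome order from the top; colour gives the title, marker shape the description, and dim marks the lowest 40% of mean level. Cd59a and Rag1 show the widest gaps between the groups by title, and most other probe sets have neighbouring arrays of both groups close to each other.

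No member passed the threshold in limma under any of 4 fits. By description 0 of 86 member probe sets above the limit for dim signal passed (0 of 27022 over the array, 0% in either direction), and 0 had an unadjusted p under 0.05, against 0.711% of all. By title 0 passed (0% of all in either direction) and 2 had an unadjusted p under 0.05, Cd59a 1418710_at and Qser1 1452331_s_at, which is 2.33% against 1.23%. With the pair as a block, 0 passed by description (0% of all in either direction) and 3 had an unadjusted p under 0.05 (3.49% against 2.35%), namely Pdhx, Cat and Api5.

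With the pair as a block by title, again 0 members passed, and over the array 1 probe set did (0.0037% higher, 0% lower), for Pttg1, the securin gene on chromosome 11. Here 9 member probe sets had an unadjusted p under 0.05, which is 10.5% against 4.14% of all. They were Cd59a, 2 probe sets of Qser1, Creb3l1, Phf21a, Large2 and Cat on the lower side and Slc1a2 and Lrrc4c on the higher side. Creb3l1, a membrane-bound transcription factor of secretory cells, was at 7.91, 8.23 and 8.64 in the arrays titled RAG and 8.56, 8.92 and 9.41 in those titled B10. Its differences within pairs 1, 2 and 3 were -0.65, -0.68 and -0.77, although the groups overlapped. Large2, a glycosyltransferase of dystroglycan, was at 7.93, 7.24 and 8.41 in the arrays titled RAG and 9.01, 8.40 and 8.51 in those titled B10, and was lower in each pair too. Under a common median, and as deposited, Creb3l1 and Large2 also parted the arrays by title.

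The direction within pairs was counted as well. By title 42 of 121 probe sets had the same sign in all 3 pairs, 19 higher and 23 lower, which is 34.7% against 25.1% of all probe sets (11.3% higher, 13.8% lower). By description 26 of 121 did, 14 higher and 12 lower, which is 21.5% against 22.7% (11.2% higher, 11.4% lower). Probe sets of 1 gene share their RNA, and the 42 belong to 29 genes and the 26 to 21 genes, so these counts are not of independent members.

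Along the chromosome, the 4 probe sets that lay higher by title (3.04% of all probe sets did) were those of Rag1, Prr5l, Ldlrad3 and Pamr1. They fell in the stretch from Rag2 to Pamr1, 9 members with 21 probe sets, which held 0 that lay lower (3.49% of all did). Rag2, at the edge of that stretch, did not part the arrays. The 19 members from Creb3l1 to Lrrc4c held 0 higher and 2 lower of 38 probe sets, the 14 from Slc1a2 to Cd59a 0 and 1 of 38, and the 13 from Hipk3 to Mpped2 0 and 1 of 24. From Creb3l1 to Lrrc4c and from Rag2 to Pamr1 the median difference by title was 0.04 and 0.22. From Slc1a2 to Cd59a and from Hipk3 to Mpped2 it was -0.01 and -0.28. By description the medians of these stretches, in the same order, were -0.03, 0.13, 0.05 and -0.18. The ends of these stretches were set after the values had been seen, at the parted genes, so the counts are a description with no test. They hold for quantile normalization and changed with the scaling. As deposited, Tspan18 and Prr5l 1452834_at also parted higher by title, and Creb3l1 and Large2 lower. With a common median Ldlrad3 no longer parted, whereas Prr5l 1452834_at parted higher and Creb3l1, Large2 and Fbxo3 1455047_at lower. Between Rag1 and Cd59a lie 20 other members, in which the parted probe sets were those of Prr5l, Ldlrad3 and Pamr1. By description the same stretch from Rag2 to Pamr1 held 1 parted probe set, that of Commd9.

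**Figure D3:**
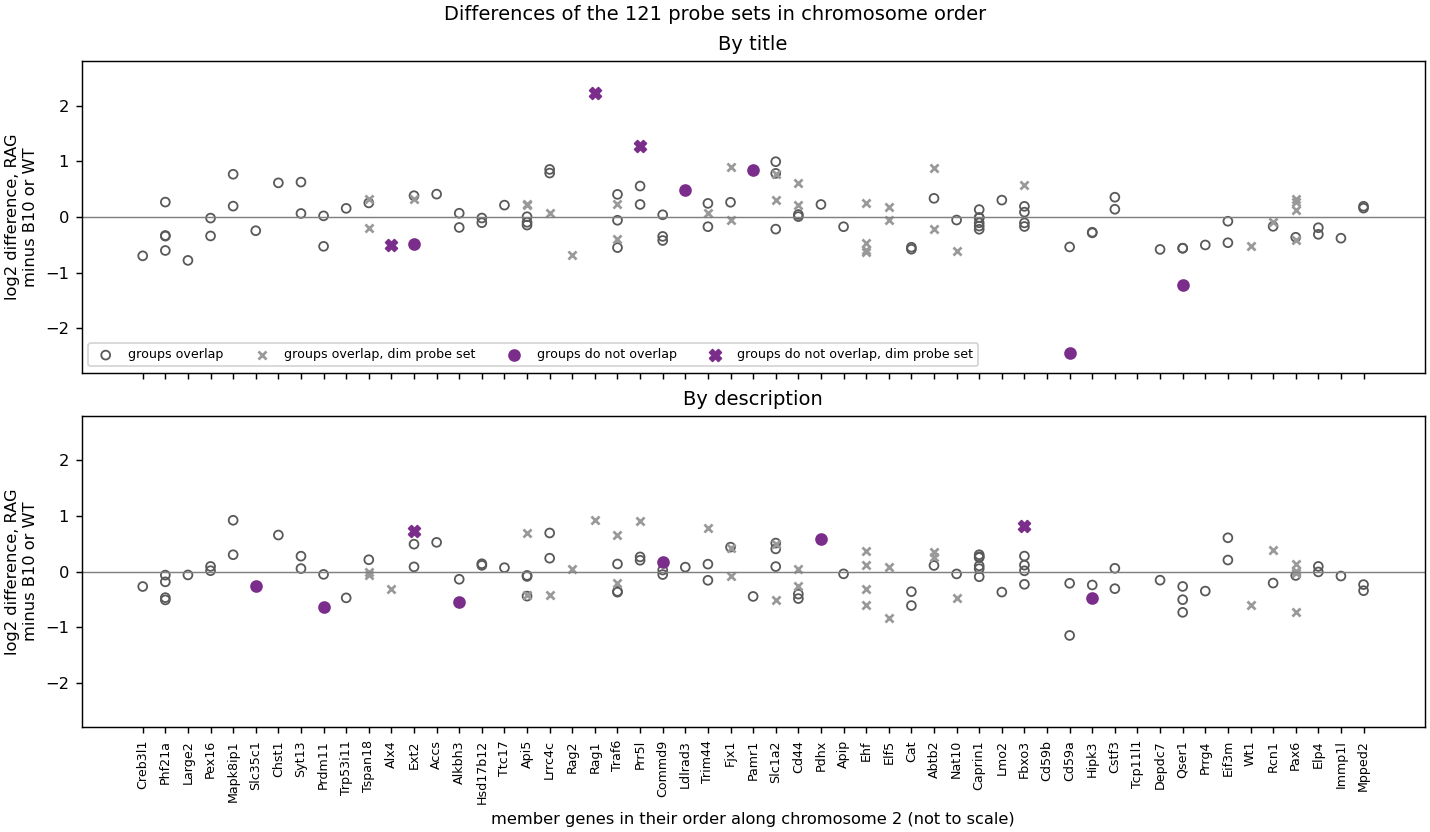
Log2 difference of all 121 probe sets by title (top) and by description (bottom), with the genes in their order along chromosome 2 and distances not to scale; purple marks groups that do not overlap and crosses mark dim probe sets. By title the 4 higher purple points lie between Rag1 and Pamr1, and Cd59a at -2.44 is the lowest point.

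By the share of parted probe sets, genes of the same interval that were not among the members did not set it apart from the rest of the chromosome. In 28 probe sets of 19 such genes, 2 parted the arrays by title (7.14%) and 1 by description (3.57%). By title these were 2810002D19Rik, next after Ttc17, with a difference of -1.08, and a dim probe set of Gm13889, near Accs, with 0.38. By description it was Alkbh3os1, antisense to Alkbh3, which was dim and differed by 1.06. In 25 windows of 50 genes over the rest of chromosome 2, the parted share ran from 2.7% to 9.18% by title and from 1.06% to 9.71% by description. On the 19 other chromosomes it ran from 4.67% to 7.79% and from 3.97% to 6.31%. The members' 6.61% lay within the range of the windows under both readings. The median size of the difference by title was 0.319 in the 28 probe sets, 0.286 in the members and 0.224 over the rest of chromosome 2. The highest value of a window by title was 0.314. By description these medians were 0.162, 0.264 and 0.199, and the highest window was at 0.260.

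**Figure D4:**
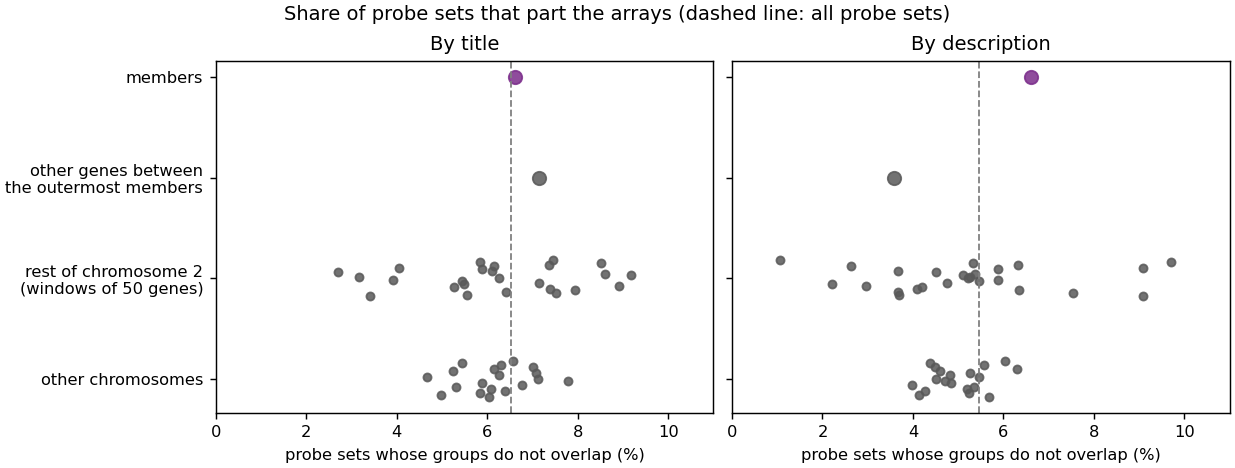
Percentage of probe sets whose groups did not overlap, by title (left) and by description (right), for the members, other genes between the outermost members, 25 windows of 50 genes over the rest of chromosome 2 and the 19 other chromosomes, each point 1 region; the dashed line is the share over all probe sets. The members, at 6.61% in both panels, lie inside the range of the windows.

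Several members varied widely between single arrays. The levels of 16 of the 86 member probe sets above the limit for dim signal spanned over 2 log2 units across the 6 arrays, which is 18.6% against 14.5% of all. RAG-/- replicate 2 held the lowest level in 30 of the 86 (34.9%, against 29% of all) and the highest in 19 (22.1%, against 23.3%). Syt13, a synaptotagmin of neurons and endocrine cells, was at 10.79 there at 1434470_at and at 7.20 to 8.66 in the other arrays. Chst1, a sulfotransferase of keratan sulfate, was at 10.10 there and at 7.58 to 8.89 elsewhere. Lrrc4c, a netrin-G ligand at synapses, was at 8.90 there and at 6.52 to 7.66 elsewhere at 1437201_at. The summed intensity of 8 neuron markers was 74504 in this array and 8161 to 40508 in the others, and their part in these values was not tested.

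Slc1a2, the main glutamate transporter of astrocytes, differed widely between pairs. Its probe set 1438194_at was at 12.29, 13.25 and 10.45 in the arrays titled RAG and 11.58, 11.41 and 10.04 in those titled B10 (pairs 1, 2 and 3). In each pair the array titled RAG was the higher, yet both arrays of pair 3 lay below all others. The difference by title was 0.99, with an SE of 0.70 without the block and 0.29 with it (limma unadjusted p 0.0109, adjusted p 0.926). The Slc1a2 probe set 1451627_a_at, also higher in the array titled RAG of each pair, differed by 0.78. At 1439940_at, by contrast, the difference by title was -0.22. There the array titled RAG was lower in pair 1 (7.94 against 8.40) and pair 3 (6.31 against 6.87). The summed intensity of 7 astrocyte markers was 54482 in RAG-/- replicate 2 and 16861 and 20152 in the arrays of pair 3, and their part in the Slc1a2 values was not tested.

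Cd44, a hyaluronan receptor of immune and stromal cells, was highest in WT replicate 1, at 8.68 at 1434376_at against 6.70 to 7.94 in the other arrays. Lmo2, a transcription cofactor of blood and endothelial cells, was at 10.25 there and at 9.0 to 9.96 in the others. WT replicate 1 also held the highest summed intensities of 7 endothelial markers (6679, against 1540 to 3406) and of 7 macrophage markers (10533, against 3167 to 8819). The part of these cells in the Cd44 and Lmo2 values was not tested. Traf6, the ubiquitin ligase that relays Toll-like and interleukin-1 receptor signals and the next member after Rag1, was at 8.74, 8.44 and 9.38 in the arrays titled RAG and 8.34, 8.52 and 8.49 in those titled B10 at its brightest probe set. These groups overlapped, and the difference was 0.41 (SE 0.32).

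**Figure D5:**
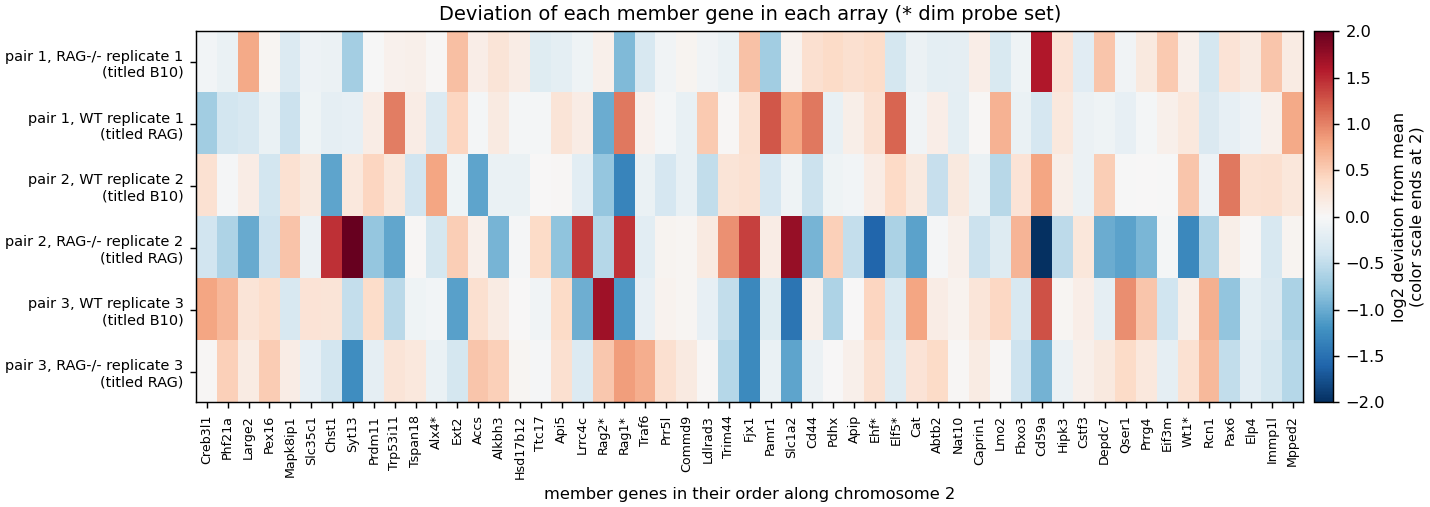
Deviation of each of the 53 measured members, at its brightest probe set, from its mean over the 6 arrays in log2 units (colour, red above and blue below the mean, with the scale ending at 2), with genes in chromosome order and arrays ordered by pair; asterisks mark dim probe sets. Cd59a and Rag1 alternate between the 2 arrays of every pair, while Syt13, Chst1 and Slc1a2 are strongest in RAG-/- replicate 2.

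Most member probe sets showed small differences. The median size of the difference by description was 0.26 over members and 0.22 over all probe sets. Mapk8ip1 1425679_a_at, not named above, differed by 0.92 by description and 0.77 by title, with groups that overlapped. In all, 85 of 121 probe sets differed by less than 0.5 by title and 95 by description, and 4 differed by more than 1 by title (Cd59a, Rag1, Prr5l and Qser1) and 1 by description (Cd59a), against 2.38% and 2% of all probe sets. Caprin1, an RNA-binding protein of stress granules, had 6 probe sets, whose differences ran from -0.22 to 0.13 by title and from -0.09 to 0.30 by description. Hsd17b12, an enzyme of fatty acid elongation, was at 12.78, 12.69 and 12.84 in WT and 12.98, 12.80 and 12.86 in RAG-/- at 1450011_at (difference 0.11, SE 0.18). Cat, the peroxide-degrading enzyme catalase, was at 12.77, 13.03 and 13.62 in WT and 12.73, 11.77 and 13.10 in RAG-/- at 1416429_a_at. The groups overlapped, with a difference of -0.61 (SE 0.37).

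Transcription factors of other organs were at the bottom of the scale. Ehf, Elf5, Wt1 and Alx4 had only dim probe sets, like Rag1 and Rag2, which makes 6 such members. Pax6, a factor of eye and forebrain, had 1 of 5 probe sets above the limit, at 7.46, 8.69 and 6.85 in WT and 7.91, 7.75 and 7.14 in RAG-/-. These groups overlapped, with a difference of -0.07 (SE 0.49). Where 26 genes had several probe sets above the limit, those of 1 gene differed in sign in 11 genes by title and 7 by description.

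The partners of RAG1 and RAG2 in V(D)J recombination, the joining of antigen receptor segments, were read from a list. Of 15 genes, 13 were measured and 12 were above the limit for dim signal. With limma 0 passed the threshold in either direction in any of the 4 fits, and 0 of 13 parted the arrays by description or by title, where 5.47% and 6.53% of all probe sets did, so a count of 0 in so short a list does not set it apart. The median difference was -0.05 by description and 0.08 by title. Dntt, the lymphoid polymerase that adds bases at the joints, was dim, at 6.49, 6.30 and 6.07 in WT and 4.76, 6.83 and 5.76 in RAG-/-. The end-joining factors Xrcc4 and Prkdc differed by 0.29 and 0.02 by description.

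Lymphocyte markers, read as a check of the genotype, were mostly dim. Of 6 measured T cell genes, 1 (Cd8a) was above the limit for dim signal, and the summed intensity was 288 to 380 in WT and 290 to 406 in RAG-/-. Of 6 measured B cell genes, 2 (Pax5 and Cd22) were above it, and the sum was 276 to 340 in WT and 214 to 423 in RAG-/-. By title the T cell sum was 290 to 397 in RAG and 288 to 406 in B10. The B cell sum by title was 214 to 282 in RAG and 276 to 423 in B10. The ranges of the groups overlapped for both lists under both readings, though only narrowly for the B cell sum by title. The median difference of the T cell genes was 0.13 by description and -0.04 by title. That of the B cell genes was -0.06 and -0.25. Single dim genes parted the arrays in both directions. By description Cd4 lay lower in RAG-/- (5.47% of all probe sets parted). By title Cd3d lay higher and Cd247 and Ms4a1 lower in the arrays titled RAG (6.53% of all parted). These markers therefore did not settle which reading of pair 1 is right.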

How the data were processed

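Linear intensities of 45101 probe sets on 6 arrays were deposited by the authors. How these intensities were computed (software, background, normalization) is not given in the sources used here. The authors' intensities had a mean of 500 on each array after the lowest and highest 2% were set aside, so arrays had been scaled one by one and dim probe sets had not been removed.

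After 64 control probe sets were dropped, log2(intensity + 16) was quantile normalized, and the lowest 40% of mean values were left out of the tests, which left 27022. Of the 45037 probe sets, 34945 had 1 gene symbol, 932 several and 9160 none, and 34741 matched the gene table of assembly GRCm38.p6, used for symbols and gene order. Groups were fitted with limma 3.58.1 in R 4.3.3 (lmFit, and eBayes with an intensity trend), two-sided, with Benjamini-Hochberg adjustment over all probe sets tested and a threshold of 0.05. Dim members entered only a fit without the filter. The fit was tested on simulated data.

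The title codes were taken to pair the arrays, since arrays of pairs 1, 2 and 3 deviated together from their groups (r = 0.29, 0.39 and 0.58, each over 0.1), and fits with the pair as a block were made beside those without it. The members, lists and tests were chosen with earlier results of these data known. Values per array are given for Rag1, Rag2, every member probe set whose groups did not overlap by either reading, and other probe sets of those genes that went another way. Other members, Xist and Eif2s3y are named as examples chosen after their values were seen. Alternatives were the pseudocount, the scaling, the filter, array weights, the pair block and leaving out arrays or pairs. The markers are lists of 6 to 12 genes per cell type, summed over each gene's brightest probe set. Of these, 6 ependymal markers summed to 8254 to 13783 in the arrays titled B10 and 9652 to 16049 in those titled RAG. Of the 6, 2 (Ccdc153 and Tmem212) parted these arrays, higher in RAG (6.53% of all probe sets parted by title). Foxj1, Rsph1, Dnah5 and Pifo did not, with differences by title of 0.03, -0.30, -0.57 and -0.23. The median difference by title over the list was -0.10.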

Additional observations from a re-analysis of the deposited data

How the results depend on the processing

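Over all probe sets, the count past the threshold by description was 0 under each alternative other than leaving out arrays, where it ran from 0 to 4. It was 4 without RAG-/- replicate 2 and 2 without pair 2. These were Xist (only without RAG-/- replicate 2, difference -4.78) and probe sets with no single gene symbol in the annotation. The latter differed by 4.80 to 7.89, opposite to Xist, and whether they are sex-linked was not determined. By title it was 1 with the replicate block and 2 with array weights, all Pttg1. No member passed under any alternative run. Member probe sets whose groups did not overlap by description, 8 at first, numbered 3 with the values as deposited, 5 with a common median and 15 to 39 with arrays or pairs left out (12.4% to 32.2% of members, against 12.6% to 27.3% of all, and the higher of both in 7 of 9 settings). As deposited, 5.24% of all parted, and 5.7% with a common median. By title they numbered 5 with the lowest 40% left out and 14 to 42 with arrays or pairs left out (11.6% to 34.7%, against 13.7% to 31% of all). In place of the replicate block, the sign within all 3 pairs was the same in 26 by description and 42 by title. All 8 probe sets parted by title still parted as deposited, and 7 of them with a common median. The Rag1 difference kept its sign throughout under both readings, which by title was bound to happen when arrays or pairs were left out. The Rag2 difference by description turned to -0.082 with a pseudocount of 64 and ran from -0.48 to 0.90 with arrays or pairs left out. The differences of the named probe sets kept their direction in the reading in which they parted. Leaving out arrays or pairs, array weights and the pair block could not have turned that direction, since the groups did not overlap. The differences of dim probe sets moved with the pseudocount (64 to 1), from 0.66 to 1.90 for Prr5l, -0.19 to -1.23 for Alx4, 0.36 to 1.41 for Fbxo3 and 0.28 to 1.66 for Ext2. The 6 arrays in 3 pairs limit all of these values, and dim probe sets lie near the background in some or all arrays, Rag1 in those titled B10.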
